A study of Mus musculus with 9 samples.

Results

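Macrophages and monocytes of the mouse colon were followed here through 10 genes that mark them: Csf1r, Cx3cr1, Cd14, Itgam, Adgre1 (also called Emr1), Mrc1, Cd68, Lyz2, C1qa and C1qb. The genes were chosen as a list of known markers, with earlier results of these data known. Their array probes were found through the RefSeq transcript to which each probe is assigned. In this way 14 probes were named for 9 of the 10 genes, and no value is given for Cd68, for which no probe was named here. All 9 genes passed the filter on dim probes and were tested among 21095 features, of which 14193 had a gene symbol.

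Total RNA came from the colonic mucosa of ICR mice, which are outbred, and the labels call this tissue normal; each of 9 samples was hybridised to 1 single-colour Agilent array. Every group had received 1,2-dimethylhydrazine, a carcinogen that induces colon tumors in rodents, by weekly injection of 20 mg/kg under the skin for 20 weeks. The hCA-Tumor group (3 arrays) ate a diet with 3% calcium and had tumors. The hCA-Notumor group (3 arrays) ate the same diet and had none, and the group called DMH (3 arrays) ate a diet with 1.24% calcium, its tumor status being labelled only as control. No group without the carcinogen was analysed here. Whether replicates are different animals is not stated in the labels, and p-values then reflect the spread among these 9 arrays alone, part or all of which may be technical.

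Macrophages of the colon are replenished from blood monocytes, which leave the circulation and mature in the mucosa. They engulf bacteria and dying cells below the epithelium, and their survival depends on signals through the receptor that Csf1r encodes. PU.1, the product of Spi1, is the transcription factor that directs much of the macrophage programme, and it binds a purine-rich core that can be written GAGGAA. Read on the opposite strand, the same core is TTCCTC.

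The RefSeq promoter table (build GRCm38.p6, 250 bases before to 50 after each start) held 5 of the 9 measured genes. The PU.1 core was present in 3 of these 5 windows, on either strand, against 28.1% of 32544 promoter windows of that length. The AP-1 site TGANTCA, whose matches overlap none of the core, was in 0 of the 5 windows and in 7.79% of all. The windows of Itgam, Mrc1 and C1qb are shown because they hold the core while their genes moved differently below, and that of Lyz2 because it lacks the core. Capitals mark the core in either orientation, and a match describes the letters only. The windows are those of Itgam at chr7:128062390-128062689 (plus strand), Mrc1 at chr2:14229164-14229463 (plus strand), C1qb at chr4:136886151-136886450 (minus strand) and Lyz2 at chr10:117282223-117282522 (minus strand), each written along the strand of its gene.
Itgam: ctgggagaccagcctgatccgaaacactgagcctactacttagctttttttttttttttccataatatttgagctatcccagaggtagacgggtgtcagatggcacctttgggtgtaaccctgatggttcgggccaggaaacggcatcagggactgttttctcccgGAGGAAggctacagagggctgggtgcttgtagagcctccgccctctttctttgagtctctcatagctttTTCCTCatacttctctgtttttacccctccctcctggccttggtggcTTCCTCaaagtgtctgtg
Mrc1: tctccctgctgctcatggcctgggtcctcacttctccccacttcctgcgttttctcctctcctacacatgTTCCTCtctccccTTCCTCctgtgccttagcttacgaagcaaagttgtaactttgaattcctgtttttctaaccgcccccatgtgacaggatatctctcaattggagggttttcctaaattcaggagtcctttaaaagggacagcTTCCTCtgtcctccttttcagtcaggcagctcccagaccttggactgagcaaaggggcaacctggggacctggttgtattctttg
C1qb: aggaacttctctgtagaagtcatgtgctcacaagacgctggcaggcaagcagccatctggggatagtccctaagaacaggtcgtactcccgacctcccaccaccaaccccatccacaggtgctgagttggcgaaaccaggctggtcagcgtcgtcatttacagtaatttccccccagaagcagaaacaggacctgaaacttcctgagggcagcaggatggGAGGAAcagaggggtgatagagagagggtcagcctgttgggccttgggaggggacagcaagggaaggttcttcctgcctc
Lyz2: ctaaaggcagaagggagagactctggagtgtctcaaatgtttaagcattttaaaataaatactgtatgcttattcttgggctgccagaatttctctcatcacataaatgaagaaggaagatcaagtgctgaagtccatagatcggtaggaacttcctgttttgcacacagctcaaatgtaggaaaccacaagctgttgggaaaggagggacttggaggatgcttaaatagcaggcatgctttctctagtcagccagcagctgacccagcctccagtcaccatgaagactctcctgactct
The core occurred 3 times in the Itgam window, 3 times in the Mrc1 window and 1 time in the C1qb window.

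Levels are given as scaled log2 signals, the log2 of the processed signal minus the 75th percentile of the same array, so 0 stands for that percentile and signals of different probes are not set against each other. Arrays on 1 slide resembled each other, and groups were spread unevenly over 3 slides. Slide 1 held the 3 hCA-Notumor arrays and DMH replicate 1, slide 2 held hCA-Tumor replicates 1 and 2 with DMH replicates 2 and 3, and slide 3 held hCA-Tumor replicate 3 alone. Across the tested features, which are not independent replicates, r was 0.994 to 0.997 for 5 pairs of the same group and slide. It was 0.967 to 0.984 for 4 pairs of 1 group split over slides and 0.979 to 0.983 for 7 pairs of different groups on 1 slide. For this reason results of the markers below are also given from a fit with the slide as a block or from single slides. Counts of the other gene lists are given from the fit without a block only. No slide held both high calcium groups, and in the block hCA-Tumor replicate 3 carries no weight. Between 61.1 and 73.8% of 41174 probes were well above background on each array, and with 3 arrays in a group precision is limited.

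Compared with DMH, hCA-Tumor mucosa had lower signals of 6 of the 9 markers, and none was higher past the threshold (adjusted p under 0.05, limma over all 21095 features). The 6 were Itgam, Adgre1, Lyz2, C1qa, C1qb and Cd14, with falls of 1.18-fold to 1.98-fold. The largest, on the dim Itgam probe, did not pass with another background correction (adjusted p = 0.727), and the next was 1.62-fold for Adgre1. Of all features, 15.9% were lower and 21.3% higher in this comparison. In hCA-Notumor mucosa, 3 markers were lower than in DMH (Mrc1, Itgam and Adgre1) and 1, Cx3cr1, was higher, beside 17.4% of all features lower and 18.5% higher. The median log2 difference of the 9 markers was -0.26 for hCA-Tumor minus DMH and -0.15 for hCA-Notumor minus DMH, against medians of 0.08 and 0.07 over all features. In bulk mucosa, fewer macrophages and less RNA of these genes per macrophage cannot be told apart. Both comparisons share the DMH arrays.

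The 2 high calcium groups also differed from each other: 5 markers were lower in hCA-Tumor than in hCA-Notumor mucosa (Cx3cr1, Lyz2, Itgam, C1qa and C1qb) and 1, Mrc1, was higher. Of all features, 20.5% were lower and 27.2% higher in this contrast, and the medians were -0.20 for the markers and 0.01 for all features. hCA-Tumor had the lowest mean of the 3 groups for 7 markers and hCA-Notumor for 2. DMH had the highest mean for 7 markers and hCA-Notumor for 2. With the slide as a block, 3 of the 6 passed, those of Mrc1, Cx3cr1 and Lyz2.

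**Figure D1:**
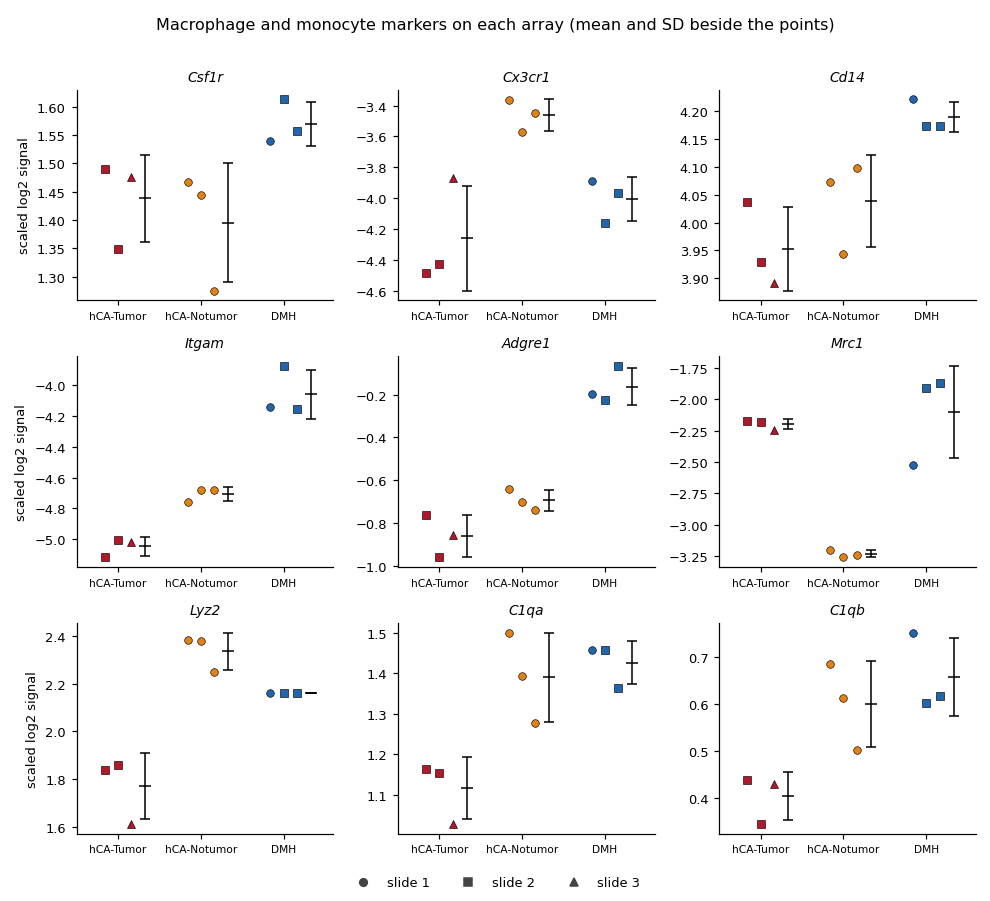
Scaled log2 signal (vertical axis) of the 9 measured markers on each array of hCA-Tumor, hCA-Notumor and DMH, with the group mean and SD beside the points and the slide shown by the marker shape. Adgre1 and Itgam separate all 3 groups in the order hCA-Tumor, hCA-Notumor, DMH from low to high, whereas Mrc1 is lowest in hCA-Notumor and Cx3cr1 and Lyz2 are highest there.

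Among the receptors that place and maintain these cells, Csf1r showed small differences. Csf1r encodes the receptor for CSF1 and interleukin 34, on which most macrophages depend. Its signals were 1.49, 1.35 and 1.48 on the hCA-Tumor arrays, 1.47, 1.44 and 1.27 on the hCA-Notumor arrays and 1.54, 1.61 and 1.56 on the DMH arrays. Every high calcium array lay below every DMH array, while the high calcium groups overlapped. Neither difference from DMH passed: it was -0.13 ± 0.07 (SE) for hCA-Tumor (adjusted p = 0.173) and -0.17 ± 0.07 for hCA-Notumor (adjusted p = 0.0823). hCA-Tumor and hCA-Notumor did not differ past the threshold (0.04 ± 0.07, adjusted p = 0.636). A second probe of Csf1r gave -0.24 for hCA-Tumor minus DMH, which passed when every kept probe was tested by itself (adjusted p = 0.0285), and -0.05 for hCA-Notumor minus DMH (adjusted p = 0.571). The third probe was well above background on 1 hCA-Tumor, 2 hCA-Notumor and 2 DMH arrays and was not used.

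Cx3cr1, the receptor for the membrane-bound chemokine fractalkine and a mark of resident intestinal macrophages, was higher in hCA-Notumor than in the other groups. It measured -4.48, -4.43 and -3.87 on the hCA-Tumor arrays, -3.37, -3.57 and -3.45 on the hCA-Notumor arrays and -3.89, -4.16 and -3.97 on the DMH arrays. The hCA-Notumor arrays lay above all others, and hCA-Tumor replicate 3, the array on slide 3, lay just above the DMH arrays, whereas hCA-Tumor replicates 1 and 2 lay below them. hCA-Tumor was 1.74-fold below hCA-Notumor (log2 difference -0.80 ± 0.17, adjusted p = 0.00612), with -0.82 under the slide block (adjusted p = 0.013). Under normexp background correction, another way of subtracting background, this difference was -0.25 and did not pass (adjusted p = 0.248). hCA-Notumor exceeded DMH by 0.54 ± 0.17 (1.46-fold, adjusted p = 0.039), and by 0.43 with the slide as a block (adjusted p = 0.0364) and within slide 1 (adjusted p = 0.0684). This call ended without hCA-Notumor replicate 1, 2 or 3 (adjusted p = 0.112, 0.0663 and 0.0978) and without DMH replicate 2 or 3 (adjusted p = 0.123 and 0.089). The same call also ended under normexp (0.21, adjusted p = 0.344), with the authors' whole-series table (0.36, adjusted p = 0.109) and with dim probes kept in (adjusted p = 0.0729). hCA-Tumor did not differ from DMH past the threshold (-0.26 ± 0.17, adjusted p = 0.28), but did at -0.45 without hCA-Tumor replicate 3 (adjusted p = 0.0123) and at -0.39 with the slide as a block (adjusted p = 0.0206) or within slide 2 (adjusted p = 0.0385), and at -0.39 under quantile normalization (adjusted p = 0.0128). A dimmer second probe, well above background on 1 hCA-Tumor, 3 hCA-Notumor and 1 DMH arrays, passed the filter through hCA-Notumor, where it was bright. It is not read as a second measurement, alone or in a mean of probes.

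Cd14, the co-receptor that hands bacterial lipopolysaccharide to the Toll-like receptor 4 complex, was slightly lower on high calcium. Its signals were 4.04, 3.93 and 3.89 in hCA-Tumor, 4.07, 3.94 and 4.10 in hCA-Notumor and 4.22, 4.17 and 4.17 in DMH. All 6 high calcium arrays lay below the 3 DMH arrays, and the high calcium groups overlapped. hCA-Tumor was 1.18-fold lower than DMH (-0.24 ± 0.06, adjusted p = 0.0189), a call lost with the slide as a block (-0.19, adjusted p = 0.0777), within slide 2 (adjusted p = 0.0758) and without hCA-Tumor replicate 2 (-0.22, adjusted p = 0.0627). It was also lost under normexp (adjusted p = 0.149), with the authors' whole-series table (adjusted p = 0.187) and with dim probes kept in (adjusted p = 0.0588). hCA-Notumor minus DMH was -0.15 ± 0.06 and did not pass (adjusted p = 0.0899), though it did under quantile normalization (-0.19, adjusted p = 0.0461). Nor did the high calcium groups differ from each other past the threshold (-0.09, adjusted p = 0.284).

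Itgam encodes CD11b, the alpha chain of complement receptor 3, which is carried by monocytes and macrophages and also by neutrophils and natural killer cells. Itgam measured -5.12, -5.00 and -5.02 in hCA-Tumor, -4.76, -4.68 and -4.68 in hCA-Notumor and -4.15, -3.88 and -4.16 in DMH. The 3 groups did not overlap, hCA-Tumor being lowest and DMH highest, and this dim probe was well above background on 2 of the 3 hCA-Tumor arrays and on all others. The fall against DMH was 1.98-fold in hCA-Tumor (-0.98 ± 0.08, adjusted p = 0.000261) and 1.56-fold in hCA-Notumor (-0.65 ± 0.08, adjusted p = 0.00103). Both remained with the slide as a block, at -1.04 (adjusted p = 0.00154) and -0.56 (adjusted p = 0.0199). hCA-Tumor lay below hCA-Notumor by 0.34 (log2 difference -0.34 ± 0.08, adjusted p = 0.0122), but not past the threshold with the block (-0.48, adjusted p = 0.0636) or under quantile normalization (-0.23, adjusted p = 0.425). Under normexp background correction none of these differences passed: hCA-Tumor minus DMH was -0.13 (adjusted p = 0.727) and hCA-Notumor minus DMH -0.07 (adjusted p = 0.836).

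The second Itgam probe, assigned to another RefSeq transcript of the gene, gave a different order. It measured -4.39, -4.39 and -4.84 in hCA-Tumor, -6.69, -6.45 and -5.89 in hCA-Notumor and -5.45, -4.07 and -4.00 in DMH. On this probe hCA-Notumor was lowest, all 3 of its arrays lying below every other one, and hCA-Tumor fell among the DMH arrays. Well above background were 3 hCA-Tumor, 1 hCA-Notumor and 2 DMH arrays. It passed the filter through hCA-Tumor alone, so its signals in hCA-Notumor are mostly at background and its differences are given no test here. Its mean with the first probe, -0.51 for hCA-Tumor minus DMH, holds this probe and is likewise given no test. The direction between the high calcium groups is not settled for Itgam by these arrays.

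**Figure D2:**
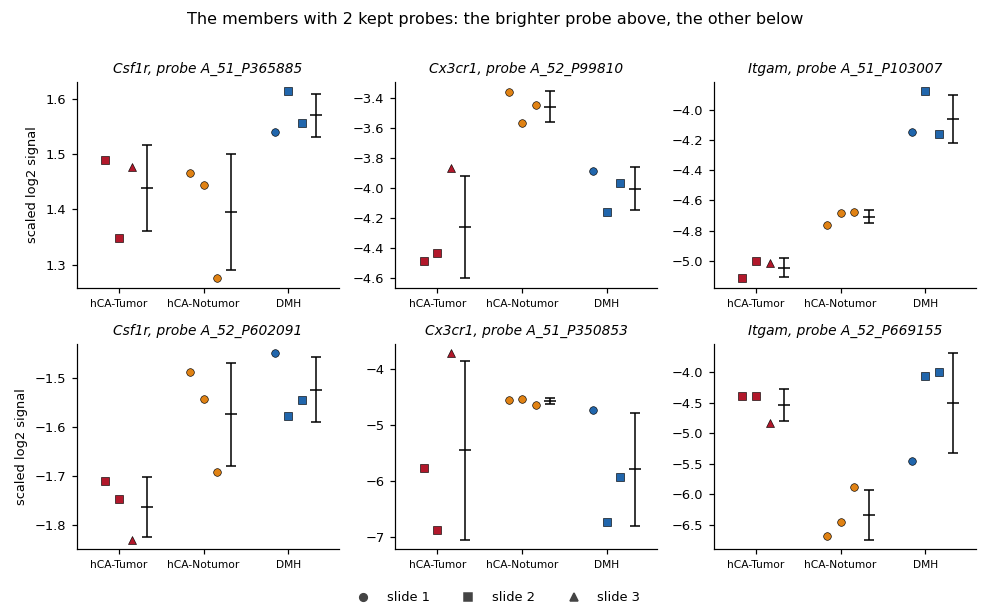
Scaled log2 signal (vertical axis) of the 3 markers with 2 kept probes, Csf1r, Cx3cr1 and Itgam, on each array of hCA-Tumor, hCA-Notumor and DMH; the brighter probe is in the upper row, and mean and SD stand beside the points. The Itgam probes place hCA-Tumor and hCA-Notumor in opposite order, the second being well above background on 3 hCA-Tumor, 1 hCA-Notumor and 2 DMH arrays.

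Adgre1, which encodes the macrophage surface protein known in mice by the antibody F4/80, was lower in both high calcium groups than in DMH. Its signals were -0.76, -0.96 and -0.86 in hCA-Tumor, -0.64, -0.70 and -0.74 in hCA-Notumor and -0.20, -0.23 and -0.07 in DMH. The groups did not overlap, and each high calcium array lay below each DMH array. hCA-Tumor was 1.62-fold lower than DMH (-0.70 ± 0.07, adjusted p = 0.000457) and hCA-Notumor 1.44-fold lower (-0.53 ± 0.07, adjusted p = 0.00113). With the slide as a block the differences were -0.72 (adjusted p = 0.00292) and -0.49 (adjusted p = 0.0204), and within slides they kept these sizes, with adjusted p of 0.0185 within slide 2 for hCA-Tumor and 0.0278 within slide 1 for hCA-Notumor. The high calcium groups differed from each other by -0.17 ± 0.07, hCA-Tumor being lower, which did not pass (adjusted p = 0.0842). A second probe was not well above background on any array.

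Mrc1, the mannose receptor CD206 of tissue macrophages that take up glycoproteins, was lower in hCA-Notumor mucosa than in both other groups. It measured -2.17, -2.18 and -2.24 in hCA-Tumor, -3.20, -3.25 and -3.24 in hCA-Notumor and -2.53, -1.91 and -1.87 in DMH. All hCA-Notumor arrays lay below all others, and the hCA-Tumor arrays fell between DMH replicate 1, on slide 1, and DMH replicates 2 and 3, on slide 2. hCA-Notumor was 2.19-fold lower than DMH (-1.13 ± 0.16, adjusted p = 0.00172) and hCA-Tumor 2.05-fold higher than hCA-Notumor (1.03 ± 0.16, adjusted p = 0.00173). Slide bore on the sizes: with it as a block these differences were -0.70 (adjusted p = 0.000959) and 0.42 (adjusted p = 0.0118), and within slide 1 hCA-Notumor minus DMH was -0.70 (adjusted p = 0.013). Against DMH, hCA-Tumor showed -0.10 ± 0.16 (adjusted p = 0.699), which became -0.29 with the block (adjusted p = 0.00578), -0.29 within slide 2 (adjusted p = 0.0203) and -0.31 without DMH replicate 1 (adjusted p = 0.00345).

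Lyz2, which encodes the lysozyme of macrophages and other myeloid cells, was lower in hCA-Tumor mucosa than in both other groups. Its signals were 1.84, 1.86 and 1.61 in hCA-Tumor, 2.38, 2.38 and 2.25 in hCA-Notumor and 2.16, 2.16 and 2.16 in DMH. No groups overlapped: hCA-Tumor was lowest, DMH in the middle and hCA-Notumor highest. hCA-Tumor was 1.31-fold below DMH (-0.39 ± 0.08, adjusted p = 0.00628) and 1.48-fold below hCA-Notumor (-0.57 ± 0.08, adjusted p = 0.000884). Both passed with the slide as a block, at -0.31 (adjusted p = 0.0113) and -0.49 (adjusted p = 0.0169), and neither with the authors' whole-series table, at -0.52 (adjusted p = 0.0838) and -0.51 (adjusted p = 0.06). hCA-Notumor minus DMH was 0.18 ± 0.08 and did not pass (adjusted p = 0.11). At the same size it passed without hCA-Tumor replicate 3 (adjusted p = 0.0321), and without that array and DMH replicate 1 together (adjusted p = 0.0384). The Paneth cell lysozyme gene Lyz1 is a near-identical copy, and whether the Lyz2 probe also captures its RNA is uncertain. Lyz1 itself measured 3.68, 3.70 and 3.44 in hCA-Tumor, 3.49, 3.42 and 3.33 in hCA-Notumor and 3.48, 3.91 and 3.83 in DMH, and passed in neither comparison with DMH (adjusted p = 0.454 for hCA-Tumor and 0.0765 for hCA-Notumor), except in hCA-Notumor, at -0.46, without DMH replicate 1 (adjusted p = 0.0101).

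C1qa and C1qb, which encode chains of the complement starter C1q and are made in the mucosa mainly by macrophages, had their lowest signals in hCA-Tumor. C1qa measured 1.17, 1.16 and 1.03 in hCA-Tumor, 1.50, 1.39 and 1.28 in hCA-Notumor and 1.46, 1.46 and 1.36 in DMH. C1qb measured 0.44, 0.34 and 0.43 in hCA-Tumor, 0.69, 0.61 and 0.50 in hCA-Notumor and 0.75, 0.60 and 0.62 in DMH. For both genes the hCA-Tumor arrays lay below every other array, and hCA-Notumor overlapped DMH.

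C1qa was 1.24-fold lower in hCA-Tumor than in DMH (-0.31 ± 0.07, adjusted p = 0.0122) and C1qb 1.19-fold lower (-0.25 ± 0.07, adjusted p = 0.0216). With the slide as a block both missed the threshold, at -0.25 (adjusted p = 0.0532) and -0.22 (adjusted p = 0.0576). Within slide 2, C1qa passed (adjusted p = 0.0381) and C1qb did not (adjusted p = 0.0505), and without hCA-Tumor replicate 2 the C1qb call ended (-0.22, adjusted p = 0.0747). With the authors' whole-series table neither passed (adjusted p = 0.121 for C1qa and 0.133 for C1qb), nor did C1qb under normexp (adjusted p = 0.0609) or with dim probes kept in (adjusted p = 0.0611). hCA-Notumor minus DMH was -0.04 for C1qa (adjusted p = 0.693) and -0.06 for C1qb (adjusted p = 0.513).

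Between the high calcium groups, hCA-Tumor was lower by -0.27 ± 0.07 for C1qa (adjusted p = 0.0155) and by -0.20 ± 0.07 for C1qb (adjusted p = 0.045). Neither passed with the slide as a block (-0.18, adjusted p = 0.302, and -0.07, adjusted p = 0.675), under normexp (adjusted p = 0.0561 and 0.147) or with the authors' whole-series table (adjusted p = 0.403 and 0.567). The C1qa call ended without hCA-Notumor replicate 1 (-0.22, adjusted p = 0.0505). The C1qb call ended without hCA-Notumor replicate 1 (adjusted p = 0.141) or 2 (0.105), without hCA-Tumor replicate 1 (0.0782), 2 (0.137) or 3 (0.0563), and without DMH replicate 2 (0.0591) or 3 (0.063). The third chain gene, C1qc, measured 3.06, 3.02 and 2.85 in hCA-Tumor, 3.12, 3.07 and 2.96 in hCA-Notumor and 3.25, 3.17 and 3.18 in DMH. Its difference of -0.22 ± 0.07 between hCA-Tumor and DMH passed (adjusted p = 0.0416), but not with the slide as a block (-0.14, adjusted p = 0.136), and leaving out any 1 array other than hCA-Tumor replicate 1 or hCA-Notumor replicate 3 ended it (adjusted p = 0.0526 to 0.0965).

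**Figure D3:**
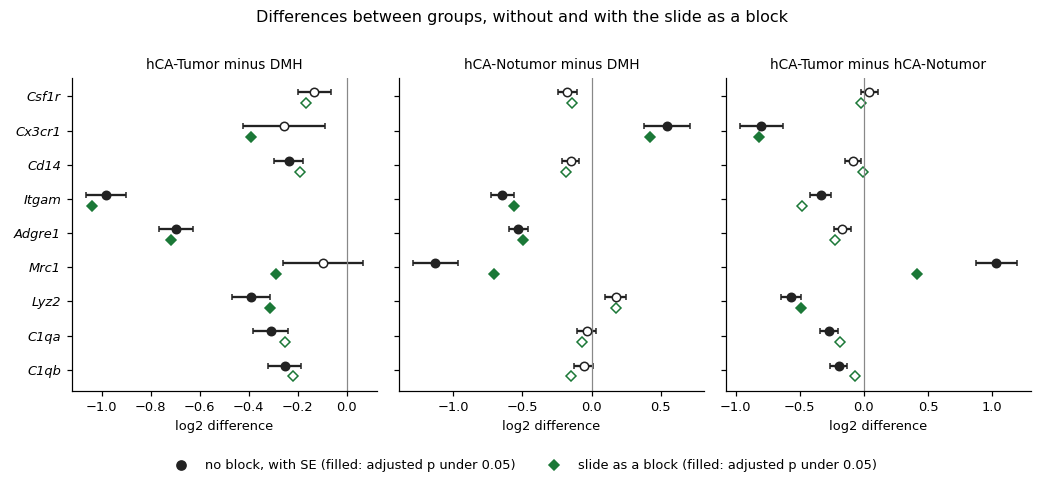
Log2 differences (horizontal axis) of the 9 measured markers for hCA-Tumor minus DMH, hCA-Notumor minus DMH and hCA-Tumor minus hCA-Notumor, with circles and SE bars for the fit without a block and diamonds for the fit with the slide as a block; filled symbols have an adjusted p under 0.05. Adgre1 and Itgam stay left of 0 in both comparisons with DMH, and Mrc1 alone lies right of 0 with both fits between the high calcium groups.

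The series set high calcium as a whole against DMH, and in the mean of both high calcium groups 4 markers were lower and none higher, beside 13.8% of all features lower and 17.9% higher. These were Itgam (1.76-fold, -0.81 ± 0.07, adjusted p = 0.00027), Adgre1 (1.53-fold, -0.61 ± 0.06, adjusted p = 0.000411), Mrc1 (1.53-fold, -0.61 ± 0.14, adjusted p = 0.0143) and Cd14 (1.14-fold, -0.19 ± 0.05, adjusted p = 0.0271). For Mrc1 the mean joins a group that fell and a group that did not pass, and its call ended without DMH replicate 2 (-0.52, adjusted p = 0.061) or 3 (-0.50, adjusted p = 0.0625) and under normexp (-0.31, adjusted p = 0.194). The Itgam call ended under normexp (-0.10, adjusted p = 0.742). For Cd14 it ended without hCA-Tumor replicate 2 (adjusted p = 0.0583) or without DMH replicate 1, 2 or 3 (0.0644, 0.0728 and 0.0775), and under normexp (0.173), with the authors' whole-series table (0.15) and with dim probes kept in (0.08). C1qa reached the threshold without hCA-Notumor replicate 1 (-0.20, adjusted p = 0.0451), and C1qb with the slide as a block (-0.19, adjusted p = 0.0458). The median of the 9 markers was -0.17, against 0.07 over all features.

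By array, 7 of the 9 markers had every hCA-Tumor signal below every DMH signal, and none the reverse, while 21.2% of all features had all hCA-Tumor arrays below and 28.4% above. For hCA-Notumor against DMH, 5 markers lay wholly below and 2 wholly above, beside 24.3% and 33.8% of features. Between the high calcium groups, hCA-Tumor lay wholly below for 6 markers and above for 1, beside 25.8% and 33.4% of features. Summed over the 9 markers as linear signals relative to each array's 75th percentile, the level was 24.9 to 27.3 in hCA-Tumor, 28.3 to 30.1 in hCA-Notumor and 30.9 to 31.6 in DMH. Bright probes contribute most to this sum, Cd14 above all, so it mainly follows that gene. On hCA-Tumor replicate 1, Cd14 measured 4.04 on the log2 scale and Lyz2, the next brightest, 1.84. The scaling shifts all differences a little. In the authors' whole-series table, centred on another reference and holding 8 of the markers, the median of all features moved by -0.14 for hCA-Tumor minus DMH, -0.22 for hCA-Notumor minus DMH and 0.08 between the high calcium groups. These moves mix the other reference with the other set of features of that table, 18459 against 21095 here. There 39.5, 29.3 and 63.0% of the calls were higher, against 57.2, 51.4 and 57.1% here. Relative to the median of all features, all 9 markers were lower in hCA-Tumor than in DMH here, and all 8 in that table. That table holds the same scanner signals with another reference per array, so its count is no separate check. Of the 9, Csf1r, Cx3cr1 and Mrc1 did not pass in this comparison.

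Signals that recruit and feed macrophages did not move as 1 block. The gene lists from here on, like the markers, were chosen with earlier results of these data known. Their counts come from the fit without a slide block, and the high calcium groups share no slide. The counts stand beside the shares of all features. These were 21.3% higher and 15.9% lower in hCA-Tumor against DMH, and 18.5% and 17.4% in hCA-Notumor against DMH. Between the high calcium groups they were 27.2% higher and 20.5% lower. Of the growth factors, monocyte chemokines and their receptors, 14 of 17 were tested; 3 rose and 6 fell in hCA-Tumor against DMH, 1 rose and 5 fell in hCA-Notumor, and 4 were higher and 6 lower in hCA-Tumor than in hCA-Notumor. The median differences of this list were -0.10, -0.17 and -0.02. Il34, a ligand of the Csf1r product, measured 1.87, 1.82 and 1.63 in hCA-Tumor, 1.00, 0.94 and 1.17 in hCA-Notumor and 1.09, 0.97 and 0.89 in DMH. It was 1.73-fold higher in hCA-Tumor than in DMH (0.79 ± 0.09, adjusted p = 0.000725) and 1.67-fold higher than in hCA-Notumor (adjusted p = 0.000615), and the arrays of hCA-Tumor lay above all others. Csf1, the other ligand, differed by -0.02 in hCA-Tumor (adjusted p = 0.81) and by -0.26 in hCA-Notumor (adjusted p = 0.0161) from DMH, a call that ended without hCA-Notumor replicate 3 (adjusted p = 0.0589) or DMH replicate 3 (adjusted p = 0.0558).

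The monocyte chemokine Ccl2 was lower than in DMH by -0.29 in hCA-Tumor (adjusted p = 0.0152) and by -0.46 in hCA-Notumor (adjusted p = 0.00247). In hCA-Tumor this missed the threshold with the slide as a block (adjusted p = 0.0623) and without DMH replicate 3 (adjusted p = 0.0501), as it did in hCA-Notumor within slide 1 (adjusted p = 0.0806). Its relatives Ccl7 and Ccl12 fell 1.88-fold (-0.91 ± 0.09, adjusted p = 0.000476) and 1.84-fold (-0.88 ± 0.07, adjusted p = 0.000217) in hCA-Tumor. Ccl5, which attracts T cells and monocytes, rose in both, by 0.70 in hCA-Tumor (adjusted p = 0.000827) and 1.25 in hCA-Notumor (adjusted p = 6.3e-05). Cx3cl1, the fractalkine that binds the Cx3cr1 product, was 0.34 higher in hCA-Tumor than in DMH (adjusted p = 0.00819), and 0.20 higher in hCA-Notumor, short of the threshold (adjusted p = 0.0674). Ccr2, the receptor for Ccl2, was well above background on 3 hCA-Tumor, 0 hCA-Notumor and 2 DMH arrays, and Csf2 did not pass the filter. Ccr2 passed it only through hCA-Tumor. Its count as higher in hCA-Tumor than in hCA-Notumor, here and among the monocyte genes below, is not read as a test.

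Of 15 macrophage transcription factors, 3 rose and 3 fell in hCA-Tumor against DMH (median -0.10), and 3 rose and 2 fell in hCA-Notumor (median 0.07). These counts against DMH are near the shares of all features. Between the high calcium groups 3 were higher and 7 lower in hCA-Tumor (median -0.23). Spi1 itself, dim and well above background on 2 of the 3 hCA-Tumor arrays, measured -4.50, -5.16 and -4.63 in hCA-Tumor, -3.73, -4.01 and -3.92 in hCA-Notumor and -4.37, -4.53 and -4.30 in DMH. It lay 0.87 lower in hCA-Tumor than in hCA-Notumor (log2 difference -0.87 ± 0.17, adjusted p = 0.0048), though not past the threshold with the slide as a block (-0.89, adjusted p = 0.101). Neither difference of Spi1 from DMH passed (adjusted p = 0.142 for hCA-Tumor and 0.0543 for hCA-Notumor), the one of hCA-Notumor reaching it without hCA-Tumor replicate 1 (adjusted p = 0.0472) or 2 (adjusted p = 0.0102). Irf8, a partner of PU.1 in myeloid cells, fell by 0.25 in hCA-Tumor against DMH (adjusted p = 0.00602) and differed by -0.01 in hCA-Notumor (adjusted p = 0.811). Nr4a1, needed by patrolling monocytes and also induced early in many stimulated cells, fell in both, by 0.54 (adjusted p = 0.000906) and 0.47 (adjusted p = 0.00156).

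Other genes of tissue macrophages moved in both directions, in hCA-Tumor against DMH no more often than near the shares of all features. Of 26 surface and secreted genes, 24 were tested; 3 rose and 4 fell in hCA-Tumor against DMH, and 4 rose and 8 fell in hCA-Notumor, with medians of 0.05 and 0.01. Between the high calcium groups 6 were higher and 3 lower in hCA-Tumor (median 0.04). Arg1, well above background on 2 of the 3 hCA-Notumor arrays, fell by 1.65 in hCA-Tumor (adjusted p = 0.000106) and by 3.67 in hCA-Notumor (adjusted p = 2.71e-06). Pf4 and Folr2 fell in hCA-Notumor, by 0.87 (adjusted p = 7.53e-05) and 0.79 (adjusted p = 0.000349). In hCA-Tumor neither passed (adjusted p = 0.391 and 0.0943). The scavenger receptor gene Msr1 fell by 0.74 in hCA-Tumor (adjusted p = 0.0003) and by 0.76 in hCA-Notumor (adjusted p = 0.00018), and Ms4a7, a membrane protein of macrophages, by 0.66 (adjusted p = 0.000336) and 0.70 (adjusted p = 0.000193). Trem2, a lipid-sensing receptor, rose by 0.70 ± 0.07 in hCA-Tumor (adjusted p = 0.000544), yet fell by 0.58 in hCA-Notumor (log2 difference -0.58 ± 0.07, adjusted p = 0.00104). F13a1, a transglutaminase of tissue macrophages, likewise rose by 0.75 in hCA-Tumor (adjusted p = 0.000946) and fell by 0.91 in hCA-Notumor (adjusted p = 0.000372). hCA-Tumor exceeded hCA-Notumor by 1.27 for Trem2 (adjusted p = 3.18e-05) and by 1.66 for F13a1 (adjusted p = 2.81e-05), the same side on which Mrc1 stood.

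Of 18 complement and Fc receptor genes and their adaptors, 17 were tested; 6 rose and 3 fell in hCA-Tumor against DMH, 2 rose and 4 fell in hCA-Notumor, and 7 were higher and 2 lower in hCA-Tumor than in hCA-Notumor (medians 0.11, -0.01 and 0.27). Fcgr3, a low-affinity receptor for antibodies, fell by 0.56 in hCA-Tumor (adjusted p = 0.000352) and by 0.39 in hCA-Notumor (adjusted p = 0.00127), the second not past the threshold within slide 1 (adjusted p = 0.0596). Fcgr1, the high-affinity receptor, rose by 0.41 in hCA-Tumor (adjusted p = 0.00265) and fell by 0.47 in hCA-Notumor (adjusted p = 0.00145). Itgb2, whose product pairs with CD11b, measured -0.03, 0.01 and 0.14 in hCA-Tumor, 0.20, 0.11 and -0.03 in hCA-Notumor and 0.06, -0.07 and -0.21 in DMH. All 3 groups overlapped there, and no comparison passed (adjusted p = 0.395 for hCA-Tumor and 0.205 for hCA-Notumor against DMH).

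Among 22 genes of lipopolysaccharide sensing around Cd14, 19 were tested; 5 rose and 4 fell in hCA-Tumor against DMH, 2 rose and 7 fell in hCA-Notumor, and 8 were higher and 2 lower in hCA-Tumor than in hCA-Notumor (medians -0.01, -0.11 and 0.11). The inflammatory cytokine genes Tnf and Il1b fell in both: Tnf by 0.74 in hCA-Tumor (adjusted p = 5.05e-05) and 0.75 in hCA-Notumor (adjusted p = 2.05e-05), and Il1b 2.43-fold (adjusted p = 0.00036) and 2.15-fold (adjusted p = 0.000486). Tlr4, the signalling receptor, differed from DMH by -0.01 in hCA-Tumor (adjusted p = 0.957) and by -0.30 in hCA-Notumor (adjusted p = 0.029), the second not past the threshold with the slide as a block (-0.17, adjusted p = 0.247) or without hCA-Notumor replicate 2 (0.0809) or 3 (0.056) or DMH replicate 2 (0.0972) or 3 (0.0878). Its co-factor gene Ly96 was 0.76 higher in hCA-Tumor than in DMH (adjusted p = 0.018), a call that ended without hCA-Tumor replicate 1 (adjusted p = 0.0538) or 2 (adjusted p = 0.0572). In hCA-Notumor, Ly96 differed from DMH by -0.05 (adjusted p = 0.829), but by 0.43 with the slide as a block (adjusted p = 0.0133) and by -0.30 without DMH replicate 1 (adjusted p = 0.0205).

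All 23 lysosome and phagosome genes were tested; 4 rose and 6 fell in hCA-Tumor against DMH, 3 rose and 6 fell in hCA-Notumor, and 6 were higher and 4 lower in hCA-Tumor than in hCA-Notumor (medians -0.08, -0.18 and 0.07). Gpnmb, a glycoprotein of phagocytes, fell by 0.77 in each (adjusted p = 0.000235 and 0.000153), as did the protease gene Lgmn, by 0.55 in hCA-Tumor (adjusted p = 0.0003) and 0.64 in hCA-Notumor (adjusted p = 0.000106). Of 16 monocyte genes, 2 rose and 2 fell in hCA-Tumor against DMH, 3 rose and 5 fell in hCA-Notumor, and 5 were higher and 3 lower in hCA-Tumor than in hCA-Notumor (medians -0.03, -0.22 and 0.10). In hCA-Tumor against DMH the monocyte counts were under the shares of all features, 21.3% higher and 15.9% lower. Of this list the haptoglobin gene Hp, also made by other cells, fell by 0.94 in hCA-Tumor (adjusted p = 0.00237) and by 2.84 in hCA-Notumor (adjusted p = 1.93e-05). Plac8 rose by 0.39 (adjusted p = 0.00149) and 0.41 (adjusted p = 0.00127). In hCA-Notumor, Ace rose by 0.95 (adjusted p = 0.000365) and Ms4a6c by 0.61 (adjusted p = 0.00141), and F10 fell by 0.59 (adjusted p = 0.000569).

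Markers of other cells moved beside the macrophage markers, and their counts stand beside the shares of all features given above for each comparison. Of 12 genes shared by all leukocytes, 0 rose and 4 fell in hCA-Tumor against DMH, and none passed in hCA-Notumor. Between the high calcium groups 1 was higher and 4 lower in hCA-Tumor. With the slide as a block, Laptm5 of these 4 passed (adjusted p = 0.0117), and Cd37, Cd53 and Lcp1 did not (adjusted p = 0.0834, 0.059 and 0.2). The summed signal of the 12 genes was 46.4 to 57.3 in hCA-Tumor, 48.1 to 53.4 in hCA-Notumor and 56.9 to 60.6 in DMH. Ptprc, the pan-leukocyte phosphatase CD45, differed from DMH by -0.14 in hCA-Tumor (adjusted p = 0.324) and by -0.20 in hCA-Notumor (adjusted p = 0.156).

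Neutrophils carry Itgam, Cd14 and Lyz2 as well, and 8 of 14 neutrophil markers were tested. Of these 6 fell in hCA-Tumor and 7 in hCA-Notumor against DMH, none rose, and 4 were higher in hCA-Tumor than in hCA-Notumor. Their summed signal was 0.878 to 0.937 in hCA-Tumor, 0.455 to 0.499 in hCA-Notumor and 3.76 to 4.13 in DMH. On no array were the defining genes Cxcr2 and Elane well above background, and no probe was named for Ly6g. S100a9, an abundant neutrophil and monocyte protein gene, was 6.22-fold lower in hCA-Tumor (-2.64 ± 0.09, adjusted p = 8.37e-06) and 11.9-fold lower in hCA-Notumor (-3.57 ± 0.09, adjusted p = 1.72e-06) than in DMH. The part of neutrophils in the fall of Itgam, Cd14 and Lyz2 was not tested.

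The other cell lists were counted the same way, in the order hCA-Tumor minus DMH, hCA-Notumor minus DMH and hCA-Tumor minus hCA-Notumor. In that order the shares of all features were 21.3% higher and 15.9% lower, 18.5% and 17.4%, and 27.2% and 20.5%. For 4 eosinophil genes, 1 call is near such a share. Of 8 mast cell genes, 1 rose and 5 fell, 0 rose and 6 fell, and 2 were higher and 2 lower. Of 9 B cell genes, 7 fell, 1 fell and 5 were lower, with none higher. With the slide as a block, Cd79a, Mzb1 and Jchain of these 5 passed (adjusted p = 0.00565, 0.0349 and 0.034), and Ms4a1 and Blk did not (adjusted p = 0.0966 and 0.0962). Of 9 T cell genes, none passed, 4 rose and 3 were lower. Of 7 dendritic cell genes, 4 rose, 3 rose, and 3 were higher and 1 lower, while of 4 eosinophil genes 1 fell, 1 fell, and 1 was higher and 1 lower. These last calls, of Ear1 and Prg2, are not read as tests, as each gene passed the filter only through the group where it was bright. Well above background were 3 hCA-Tumor, 0 hCA-Notumor and 2 DMH arrays for Ear1, and 2, 3 and 2 for Prg2. Summed signals of these lists were 49.2 to 62.6 in hCA-Tumor, 75.5 to 79.6 in hCA-Notumor and 75.7 to 79.9 in DMH for B cells, and 4.12 to 4.43, 4.20 to 4.83 and 8.46 to 10.2 for mast cells in the same order of groups. They were 4.65 to 4.95, 5.55 to 6.28 and 4.58 to 5.08 for T cells, 3.32 to 3.83, 3.39 to 3.68 and 2.55 to 2.87 for dendritic cells, and 0.146 to 0.173, 0.133 to 0.155 and 0.147 to 0.172 for eosinophils. On no array were Siglech and Ccl22 of the dendritic list or Epx of the eosinophil list well above background. The part of these cells in the marker signals was not tested.

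Tissue cell lists are read beside the shares of all features, 21.3% higher and 15.9% lower in hCA-Tumor against DMH and 18.5% and 17.4% in hCA-Notumor against DMH. All 10 smooth muscle genes rose in hCA-Tumor against DMH and 7 in hCA-Notumor, with 3 higher in hCA-Tumor than in hCA-Notumor. With the slide as a block, Cnn1, Actg2 and Myh11 did not pass in hCA-Notumor against DMH (adjusted p = 0.402, 0.122 and 0.191). Des did (adjusted p = 0.0134). The summed signal of the smooth muscle list was 611 to 800.1 in hCA-Tumor, 433 to 541 in hCA-Notumor and 234 to 399.9 in DMH. Of 10 fibroblast genes, 7 rose and 1 fell in hCA-Tumor, 0 rose and 4 fell in hCA-Notumor, and 9 were higher in hCA-Tumor than in hCA-Notumor. Of 9 adipocyte genes, 8 fell in each, and 1 was higher in hCA-Tumor than in hCA-Notumor. Of 12 epithelial genes, 3 rose in each, a share near that of all features, and 1 was higher and 2 lower between the high calcium groups. Of 13 endothelial genes, 1 rose and 2 fell in hCA-Tumor, 3 rose and 2 fell in hCA-Notumor, and 3 were higher and 5 lower between them, again no more than near those shares against DMH. Of 4 Paneth cell and lysozyme genes, 3 fell in hCA-Tumor and 1 in hCA-Notumor, and 1 was higher and 2 lower between the high calcium groups. Summed signals in hCA-Tumor, hCA-Notumor and DMH were 173 to 182, 102 to 111 and 121 to 129.8 for fibroblasts and 17.4 to 26.2, 13.9 to 20.6 and 53.3 to 59.03 for adipocytes. They were 20.7 to 22.7, 64.9 to 73.4 and 70.1 to 73.9 for the Paneth list, 1669 to 1790.5, 1696 to 1869 and 1532 to 1767 for epithelium, and 13.7 to 14.2, 16.8 to 19.2 and 13.8 to 14.4 for endothelium. The part of such differences in tissue makeup in the macrophage marker signals was not tested.

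**Figure D4:**
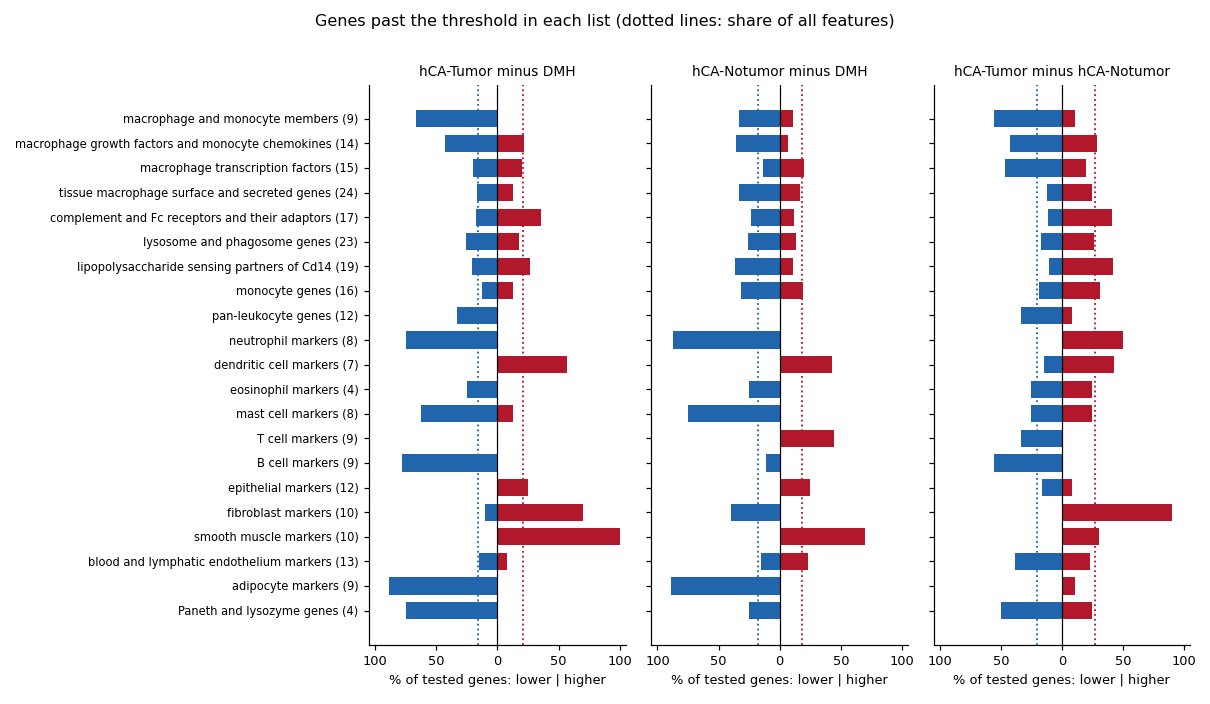
Share of the tested genes of each list (number in parentheses) that passed the threshold lower (left, blue) or higher (right, red), in percent, for hCA-Tumor minus DMH, hCA-Notumor minus DMH and hCA-Tumor minus hCA-Notumor; dotted lines give the share of all features. The macrophage and monocyte markers have 6 of 9 lower and none higher in hCA-Tumor against DMH, beside 15.9% and 21.3% of all features.

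The genes whose pattern over the 9 arrays was most like that of 2 of the markers were sought among 14137 named genes, as a description; the arrays share slides. For C1qa these were Ift81 (r = 0.996), Cttnbp2nl (0.977), Lst1 (0.956), Dad1 (0.950) and Sh3bp4 (0.949). For Csf1r they were Dgke (r = 0.916), Slc11a1 (0.908), Siglec1 (0.890), Lef1 (0.888) and F2 (0.879), of which F2 was well above background on the DMH arrays only. Siglec1, a sialic acid receptor, and Slc11a1, a metal transporter of the phagosome, are known from macrophages.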

How the data were processed

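Values are intensities of Agilent arrays of design 014868, deposited by the authors as scanner output: per the file headers, the green processed signal is background-subtracted, and features were annotated on build mm9. Per the submitters' processing notes, Agilent Feature Extraction 10.5.1.1 was used. The authors' whole-series table holds log2 values, and the rule that selected its probes is unknown here. The deposited signals were put on the log2 scale after division by each array's 75th percentile (572.9 to 822.4), without control and outlier spots. Of 41174 probes, 27207 well above background on all 3 arrays of a group were kept. Probes were named by RefSeq accession through a GRCm38.p6 table (25097 named), and the brightest kept probe stood for a gene, which gave 21095 features. Differences came from limma 3.58.1 in R 4.3.3 (lmFit, eBayes, all 9 arrays), Benjamini-Hochberg adjusted within each of 4 comparisons over all features, and a difference is given with its standard error (n = 3 arrays per group). The members and the 20 other gene lists were chosen with earlier results of these data known. Genes to name were drawn from the members, a fixed set of partners and the 5 genes nearest to Csf1r and C1qa. Up to 4 genes per list and comparison with the largest change past the threshold were added, of which only some are named. The fit was tested on simulated data. Alternatives were normexp correction (offset 50), quantile normalization, the authors' table, other probe filters, the mean of probes, single probes, slide or replicate number as a block, fits within a slide or of the compared groups only, and arrays left out.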

Additional observations from a re-analysis of the deposited data

Results flagged for a closer look

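For 6 markers the difference from DMH was not the same in the 2 high calcium groups, as tested by the difference between those groups in the fit over all arrays; no explanation is given for any of them. hCA-Tumor minus hCA-Notumor was 1.03 for Mrc1, -0.80 for Cx3cr1, -0.57 for Lyz2, -0.34 for Itgam, -0.27 for C1qa and -0.20 for C1qb. The high calcium groups share no slide, and with the slide as a block Mrc1 (0.42), Cx3cr1 (-0.82) and Lyz2 (-0.49) passed, while Itgam, C1qa and C1qb did not. No group had the 4 or more arrays needed to look for single arrays far from the rest.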

How the results depend on the processing

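The counts of markers past the threshold depended on the processing. Against DMH, 6 passed in hCA-Tumor, 4 in hCA-Notumor and 4 in the mean of both, and 6 passed between the high calcium groups. Under normexp correction these counts were 3, 2, 1 and 2, and with the whole-series values of the authors, which lack Itgam, 1, 2, 2 and 2. With the slide as a block, 3 passed between the high calcium groups, and the other 3 counts were 5, 4 and 5. Leaving out 1 array at a time gave 4 to 7 for hCA-Tumor, 3 to 5 for hCA-Notumor, 2 to 5 for the mean (2 without DMH replicate 2 or 3) and 4 to 6 between the high calcium groups. Adgre1 against DMH, in all 3 comparisons, and Mrc1 in hCA-Notumor against both other groups passed under each alternative run. A change of sign that involved a passing difference was seen only for Itgam in hCA-Tumor minus hCA-Notumor. It was 0.73 for the mean of its probes and 1.80 for its second probe. That probe was well above background on 1 of the 3 hCA-Notumor arrays, so neither value is read as a test. Some differences that did not pass also changed sign, such as Lyz2 in hCA-Notumor minus DMH (0.18, and -0.01 in the authors' table). The authors' table is centred on another reference, and each marker it holds was lower there in this comparison, such as Csf1r (-0.36, and -0.17 here). The cause of the other changes was not tested. Over all features, normexp gave 4168, 3871, 3211 and 6317 calls and the whole-series values gave 2403, 3339, 2144 and 4783, against 7839, 7567, 6677 and 10058. Between the high calcium groups the slide block gave 6463, for hCA-Notumor minus DMH slide 1 alone gave 3749, and for the mean minus DMH leaving out DMH replicate 3 gave 4353. Leaving out both arrays that lie on another slide than the rest of their group (DMH replicate 1 and hCA-Tumor replicate 3), an alternative chosen after seeing the data, as were single probes, gave 12643 for hCA-Notumor minus DMH. Replicate numbers are no pairing (deviations of same-numbered arrays correlated from -0.57 to 0.22, and 2 of 9 pairs exceeded 0.1). With the replicate block, 6, 4, 5 and 6 markers passed. Dim probes, Itgam and Cx3cr1 above all, are limited by their signal over background.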
